A study of Mus musculus with 9 samples.

Results

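The baseline described here is the substantia nigra of saline-injected mice, taken as the arrays whose treatment label is Saline, which are 3 of the 9 arrays in the series. Swiss Webster mice received intraperitoneal saline once daily on a school-week schedule for 3 months, starting at 4 weeks of age, and the SN was dissected after a week of washout. The other 6 arrays come from mice given methylphenidate (MPH), 3 labelled 1 mg/kg and 3 labelled 10 mg/kg, and serve below only to show how the 3 replicate numbers relate to each other. All groups share the strain, the injection route and the tissue, and no transgene or deletion is named for any of them. The source labels name a mouse in the singular, give no sex, and do not say whether RNA was pooled, so it is not known that each array is 1 animal. The SN was taken as a block along the rostral to caudal axis of the midbrain, with no sorting of cells.

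The SN is a midbrain nucleus in which dopamine neurons of the pars compacta, which project to the striatum, lie beside GABA neurons of the pars reticulata. Dopamine is made from tyrosine by tyrosine hydroxylase (Th) and aromatic amino acid decarboxylase (Ddc), loaded into vesicles, and taken back up by the dopamine transporter (Slc6a3). Near the nucleus lie the subthalamic nucleus, the thalamus and hypothalamus, the red nucleus and, at the midline and further back, the raphe, each with marker genes of its own.

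The RNA was read on mouse expression arrays of the Affymetrix HT MG-430 PM type, on which several short probes together, a probe set, report 1 transcript. The deposited values are log2 signals, and a gene is represented by its brightest single-gene probe set over the 3 saline arrays, which covered 17097 genes. Probe sets bind with different efficiency, so a higher signal of one gene over another is an order of signal and not of RNA molecules. A gene was counted as above the nonspecific controls when each of its 3 values was over the 95th percentile of the 23 control probe sets that match no transcript, which was 3.61, 3.61 and 3.60 in saline replicates 1, 2 and 3. The medians of these controls were 2.93 on all 3 arrays. The control probe sets at the 3′ end of Actb were brighter than those at its 5′ end by 0.882 to 0.934 on the log2 scale, and those of Gapdh by 0.231 to 0.387.

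Before any difference between saline arrays is read, a property of the deposited values has to be stated. The means of the 3 replicate numbers, each over a saline array and both MPH arrays of that number, differed by a median of only 0.0351 on the log2 scale over 45037 probe sets. The variance between replicate numbers, divided by the variance left within groups and numbers, had a median of 0.073, whereas independent arrays would give 0.828, and 97.2% of probe sets had a ratio under 1. A saline array that is high for a gene therefore tends to be matched by low values in the MPH arrays of its number. The methods name a correction of the 3 replicates, and whether it produced this property was not tested. The differences between saline replicates given below are thus differences in the deposited values and cannot be read as the spread between mice. A shift that sums to zero over the 3 saline arrays would leave their mean, and with it the ranking of genes, as it was.

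Of the 17097 genes, 12196 (71.3%) were above the nonspecific controls on all 3 saline arrays. Among genes not expected in this tissue, 5 of 78 olfactory and vomeronasal receptor genes were above, or 6.41%, the brightest being Vmn1r44 with a mean of 4.42. Of 21 genes of other organs, 2 were above. These were Csn2, a milk casein, at 6.71 and Prm1, a sperm protamine, at 4.40. The casein value came from 1 of its 3 probe sets. A value just over the threshold is therefore weak evidence of expression, and the casein gene shows that a single probe set can read 6.71 for a gene of another organ.

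The brightest genes belonged to protein synthesis, energy metabolism, the cytoskeleton and glia. Eif3f, a subunit of a translation initiation factor, had the highest mean, 13.81, followed by Mbp, which encodes myelin basic protein, at 13.59, and Cox6a1, a subunit of cytochrome c oxidase, at 13.58. Next came Rps29, a ribosomal protein, and Aldoc, a glycolytic aldolase of astrocytes, at 13.53 and 13.46. The other genes among the first 15 were Tuba1b (tubulin), Gapdh (glycolysis), Sparcl1 (an astrocyte-secreted matrix protein), Fth1 (ferritin heavy chain), Tmsb10 (actin binding), Ndrg4, Dpysl2 (axon growth), Eef1a1 (translation elongation), Rps6 and Calm2 (calmodulin), with means from 13.41 down to 13.23. Of the 100 brightest genes, 28 encoded cytosolic ribosomal proteins, 10 subunits of oxidative phosphorylation, 4 tubulins or actins, 2 translation factors and 1 a haemoglobin chain. Ribosomal protein genes differed little between the arrays, with a median SD of 0.041.

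The dopamine neuron markers Ddc, Aldh1a1, Slc6a3 and Th were among the bright genes of the tissue. Ddc had log2 values of 12.31, 12.34 and 12.19 in saline replicates 1, 2 and 3 and ranked 125 of 17097 genes. Aldh1a1, an aldehyde dehydrogenase of ventral-tier dopamine neurons, had 12.24, 12.38 and 12.13 and ranked 134. The transporter gene Slc6a3 had 12.09, 12.08 and 11.90 and ranked 187. Th had 11.18, 11.13 and 10.99 and ranked 520. Replicate 3 was the lowest for all 4 genes, by at most 0.252 below the highest array. The rank of Ddc rests on its brightest probe set, since the mean of its probe sets was 7.92.

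Since Th defines the tissue, the 250 bases before its RefSeq start site are shown, at chr7:142899996-142900245 on the minus strand of GRCm38.p6, written 5′ to 3′ along the gene. Capitals mark the cAMP response element TGACGTCA, which begins 45 bases before the start. These letters read the same on both strands and occur in 1.55% of 32851 windows of that length, one before each RefSeq start.
Th: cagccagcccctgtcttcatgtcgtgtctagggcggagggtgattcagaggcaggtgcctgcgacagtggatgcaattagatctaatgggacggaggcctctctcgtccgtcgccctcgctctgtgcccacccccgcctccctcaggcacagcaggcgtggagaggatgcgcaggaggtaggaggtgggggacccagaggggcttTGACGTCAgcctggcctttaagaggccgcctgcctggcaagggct

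Of the 32 dopamine neuron genes measured, 30 were above the controls, a share to be read against 71.3% of all genes, and their median level was 7.59 against 5.97 over all genes. Transcription factors of this lineage spanned the scale. Nr4a2, needed for the identity of these neurons, had 9.55, 10.27 and 9.68, and Foxa1 had 8.12, 8.37 and 7.88. En1 and En2, the engrailed factors of the midbrain, had means of 6.85 and 7.26, and Pitx3 was faint at 4.06, 4.30 and 3.87. Lmx1a (3.41, 3.43 and 3.45) and Lmx1b (2.94, 3.00 and 3.17) were not above the controls. Receptors followed, with the dopamine autoreceptor Drd2 at 8.29, 8.26 and 8.35, the nicotinic subunit Chrna6 at 8.43, 8.51 and 8.24, and Ret, the receptor that signals for GDNF, at 7.11, 7.42 and 6.90. Calb1, a calcium buffer richer in the dorsal tier and the ventral tegmental area, had 10.00, 10.33 and 10.31, whereas Sox6, a factor of the ventral tier, had 7.34, 7.55 and 7.45, and Otx2, a factor of the ventral tegmental area, 6.76, 6.58 and 6.46. Genes used for both tiers and for the neighbouring area were thus read on all 3 arrays. Calb1 is also on the cerebellar list and Otx2 on the choroid plexus list below, so these signals do not show which cells were sampled. The vesicular transporter Slc18a2 was measured only by a probe set that also names Pdzd8, at 10.78, 10.94 and 10.69. Fainter members above the controls included Foxa2, Gucy2c, Chrnb3 and Kcnj6, with means of 5.68, 5.62, 5.08 and 4.70. None of the 32 genes had a range over 1 between the arrays, and Nr4a2 had the largest, 0.72.

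Neuronal genes in general were bright. All 16 pan-neuronal genes were above the controls, compared with 71.3% of all genes, and their median was 11.55 against 5.97 over all genes. Among them were Stmn3 and Stmn2, regulators of microtubules, and Snap25 and Syt1 of the synaptic vesicle machinery. Snap25 had 12.55, 12.52 and 12.65. Map2 was the exception and the faintest of the list, at 5.97, 6.34 and 6.02. The neurofilament genes Nefl, Nefm and Nefh were all lowest in replicate 2, for example Nefh at 10.87, 10.50 and 11.10. In a homogenate, fewer cells of a type and less RNA per cell cannot be told apart, here or in any list below.

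GABA neuron genes stand for the inhibitory population that shares the nucleus. Of 13 measured, 11 (84.6%) were above, compared with 71.3% of all genes. Gad1, which makes GABA, had 12.38, 12.14 and 12.14, while Gad2, the other GABA-making enzyme, had 6.58, 6.28 and 6.41. The vesicular GABA transporter Slc32a1 had 10.72, 9.97 and 10.20, and Pvalb, the parvalbumin of fast-firing reticulata neurons, 10.50, 10.05 and 10.39. Tal1, Gata2 and Gata3, transcription factors of midbrain GABA neurons, had means of 6.82, 6.51 and 6.33. Lhx6, a factor of forebrain interneurons, and Sox14 were not above. Six3 was the member with a range over 1, at 7.63, 6.58 and 7.19.

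Most glial and vascular genes were above the controls, and Gpr17 was the one with a range over 1 between the arrays. The glial and vascular counts are to be read against 71.3% of all genes. Of 18 mature oligodendrocyte genes, 17 were above with a median of 10.04, led by Mbp (13.71, 13.51 and 13.56), Mal and Trf (transferrin), and Gjc3 was not. Opalin, a myelin membrane protein, had the largest range of the list, at 8.95, 8.51 and 8.42. Of 10 genes of oligodendrocyte precursors, 9 were above, led by Olig1 at 11.73, 11.65 and 11.82, but Pdgfra, the defining growth factor receptor, was not, at 3.57, 3.44 and 3.51. Gpr17, a receptor of cells committed to become oligodendrocytes, was the member with a range over 1, at 6.90, 7.64 and 6.57. All 18 astrocyte genes were above with a median of 9.74, from Aldoc and Gja1, the gap junction protein connexin 43, at 13.46 and 12.06 down to the glutamate transporter Slc1a3 at 5.59. The aquaporin Aqp4 had 11.54, 11.80 and 11.41, and Gfap, the astrocyte filament, had the largest range of the list, at 8.67, 9.26 and 8.43. All 17 microglia genes were above, with a median of 7.44. Ctss, a lysosomal protease, was the brightest at 11.42, 11.08 and 11.02. Replicate 1 was the highest array for 12 of the 17, though by a median of only 0.16 over the gene's mean, compared with −0.0039 over all genes above the controls on any array. The microglia receptors Cx3cr1 and P2ry12 had 8.58, 8.33 and 8.35, and 8.53, 8.30 and 7.97. Trem2 had 6.50, 6.26 and 5.94. Itgam and Fcrls were the faintest microglia genes, with means of 4.31 and 3.75.

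All 17 endothelial genes were above, with a median of 7.55. They included the glucose transporter of the blood-brain barrier Slc2a1 (10.06, 10.18 and 10.35) and the tight junction gene Cldn5 (8.43, 8.69 and 8.54). Slco1c1, a thyroid hormone transporter, had the largest range of the list, at 9.86, 9.13 and 9.38. The faintest endothelial genes were Pecam1, Cdh5 and Tie1, with means of 5.02, 4.85 and 3.94. Of 12 genes of pericytes and vascular smooth muscle, 10 were above, led by Rgs5 at 10.49, 10.28 and 10.55 and Vtn. Acta2, the smooth muscle actin, had 8.47, 9.09 and 9.28, the largest range of that list. None of these endothelial and mural genes had a range over 1. Of 12 blood cell genes, 7 (58.3%) were above, a lower share than the 71.3% of all genes. The haemoglobin chains Hba-a1 and Hbb-b2 had means of 12.81 and 11.50, but Hba-a2 and Alas2, an enzyme of haem synthesis in red cells, had 3.87 and 4.34, and the neutrophil genes S100a8 and S100a9 and the B cell gene Ms4a1 were not above.

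Genes of neighbouring and distant regions were partly above the controls, with shares to be read against 71.3% of all genes and in no order of distance. Of 11 genes of the subthalamic nucleus, red nucleus and midbrain glutamate neurons, 7 were above, led by the vesicular glutamate transporter Slc17a6 at 10.82, 11.04 and 11.36, and the factors Pou4f1, Pax7 and Barhl1 were not above on all 3 arrays. Of 13 thalamic genes 11 were above, of 18 hypothalamic genes 15, and of 7 genes used for serotonin neurons of the raphe 6, which include Sncg and Maob, genes that other cells of the midbrain also express. Of 7 striatal genes 6 were above, led by Penk (enkephalin) at 8.75, 9.08 and 8.95, but Drd1, the dopamine receptor of striatal projection neurons, was not, at 3.82, 3.61 and 3.45. Of 17 cortical and hippocampal genes 11 were above, with a list median of 4.24. Camk2a and Cux2 were the bright ones, at 9.27 and 8.45, and Slc17a7, the glutamate transporter that defines cortical projection neurons, was not, at 3.29, 3.51 and 3.64. Noradrenaline neurons gave 1 of 4, Dbh at 4.33, 4.51 and 4.60, and Slc6a2 was not above. Cholinergic and motor neurons gave 3 of 10, with the acetylcholine transporter genes Slc18a3 and Slc5a7 among those not above. Isl1, a LIM homeobox factor, was the member of that list with a range over 1, at 5.78, 5.25 and 4.53. Cerebellar genes gave 4 of 9, including Calb1 and Pcp4, which are not confined to the cerebellum, whereas the granule cell receptor Gabra6 and the Purkinje gene Pcp2 were not above on all 3 arrays. Zic2, a zinc finger factor, had the largest range of the cerebellar list, at 6.38, 5.95 and 6.88. Choroid plexus genes gave 4 of 12, ependymal genes 6 of 11, and pituitary genes 0 of 6. Of 16 meningeal and fibroblast genes 14 were above, led by Ptgds, which oligodendrocytes also express, at 12.73, 12.64 and 12.72.

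**Figure D1:**
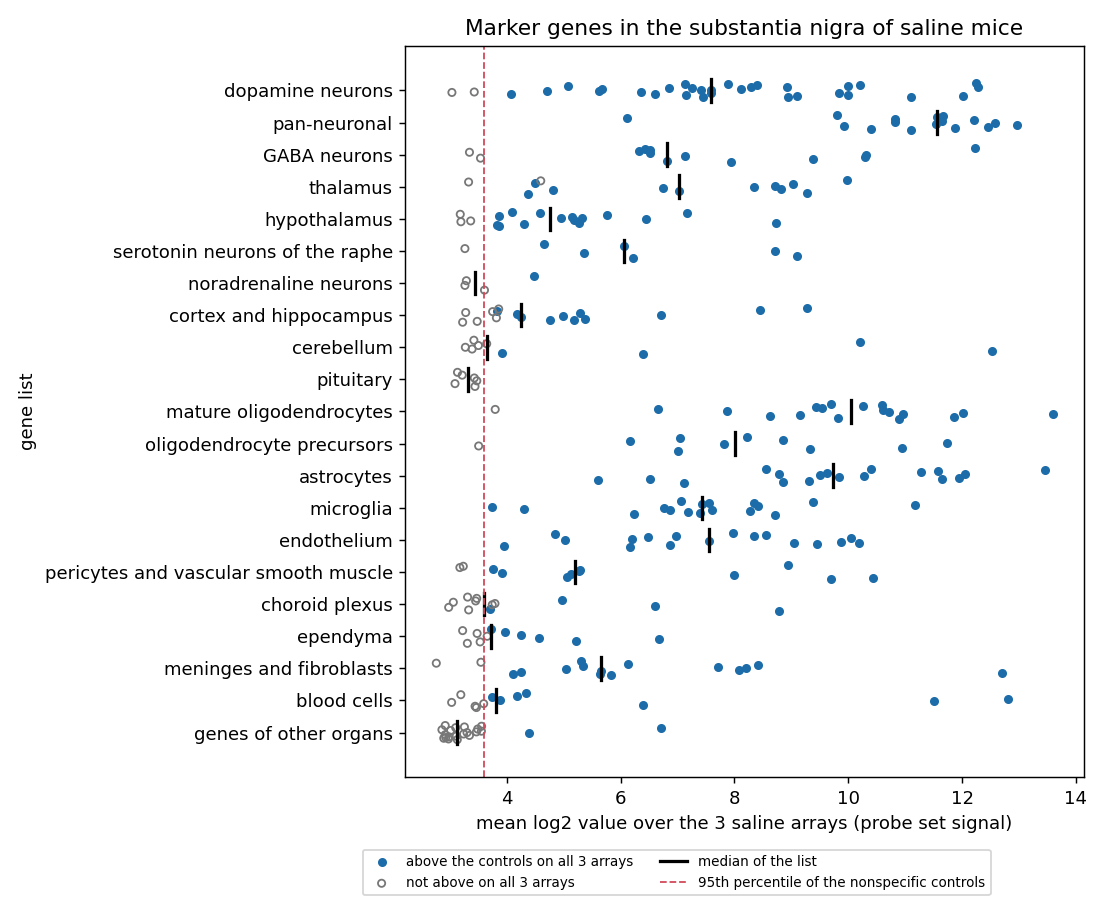
Mean log2 value over the 3 saline arrays (horizontal axis) of each measured member of 21 gene lists (rows). Filled points are genes above the nonspecific controls on all 3 arrays, open points are not, black bars are list medians and the dashed line is the mean of the 3 control thresholds. All pan-neuronal and astrocyte genes lie to the right of the line, Lmx1a, Lmx1b, Sox14 and Lhx6 of the dopamine and GABA neuron lists lie left of it, and the 6 pituitary genes and 19 of 21 genes of other organs lie among the controls.

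The counts depend on the threshold, least for the lists with bright members. Against the highest control of each array, 9533 of the 17097 genes were above, and list counts under that rule are to be read against this share. Still above were 27 of 32 dopamine neuron genes, all 16 pan-neuronal and all 18 astrocyte genes. So were 17 of 18 oligodendrocyte, 15 of 17 microglia and 14 of 17 endothelial genes. Under that rule pericytes and vascular smooth muscle fell from 10 to 5 genes, the meninges from 14 to 9, the thalamic list from 11 to 7 and the raphe list from 6 to 3. The hypothalamic list fell from 15 to 5 genes, the cortical list from 11 to 3, and Dbh was no longer above.

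Activity and stress genes were read next, since handling and dissection can raise them. Of 15 immediate-early genes, 9 (60%) were above, a lower share than the 71.3% of all genes. Among them were Dusp1 (9.11, 8.69 and 9.47), Egr1 (8.86, 8.78 and 9.06) and Fos (7.76, 8.32 and 8.04), while Npas4, Fosb and Egr2 were not above. None had a range over 1. All 9 heat shock genes were above. The constitutive Hspa8 was the brightest at 13.08, 13.13 and 13.11, and the inducible Hspa1b varied most at 8.09, 8.99 and 7.84, with replicate 2 the highest.

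For most genes the 3 arrays were close. The SD between them had a median of 0.0951 on the log2 scale over the 12196 genes above the controls, falling from 0.115 in the dimmest 3049 of these genes to 0.0707 in the brightest 3049. A gene was counted as varying when its highest and lowest arrays differed by over 1, which is more than a doubling of signal, with at least 1 array above the controls. This held for 116 of 17097 genes, or 0.678%. The last gene inside this threshold was Stum, with a range of 1.00, and the first outside it was Pax6, with a range of 0.996. Of the 116, 106 were above the controls on all 3 arrays. Replicate 2 was the array that stood apart, that is, farther from the middle value, for 59 genes, replicate 1 for 47 and replicate 3 for 10. In pairs, replicates 1 and 2 differed by over 1 in 90 genes, 2 and 3 in 47, and 1 and 3 in 29. A second probe set above the controls on at least 1 saline array was found for 47 of the 116. In 33 of these 47 it placed the same array apart on the same side, and in 19 of the 47 its own range was over 1. Second probe sets under the controls on all 3 arrays, such as those of Nr4a3 and Htr1a, were not counted.

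For all 116 genes, the mean of the MPH arrays that carry the number of the saline array standing apart lay on the opposite side of its group means, as it did for 91.3% of the 12960 genes above the controls on any saline array. The means of the 3 replicate numbers of these 116 genes differed by a median of 0.13, compared with a median range of 1.20 between the saline arrays. Within the 1 mg/kg MPH group 21 of the 116 also had a range over 1, compared with 65 (0.502%) of the 12960 genes. Within the 10 mg/kg MPH group 66 did, compared with 231 (1.78%). These ranges are tied to the saline ones in the same way.

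**Figure D2:**
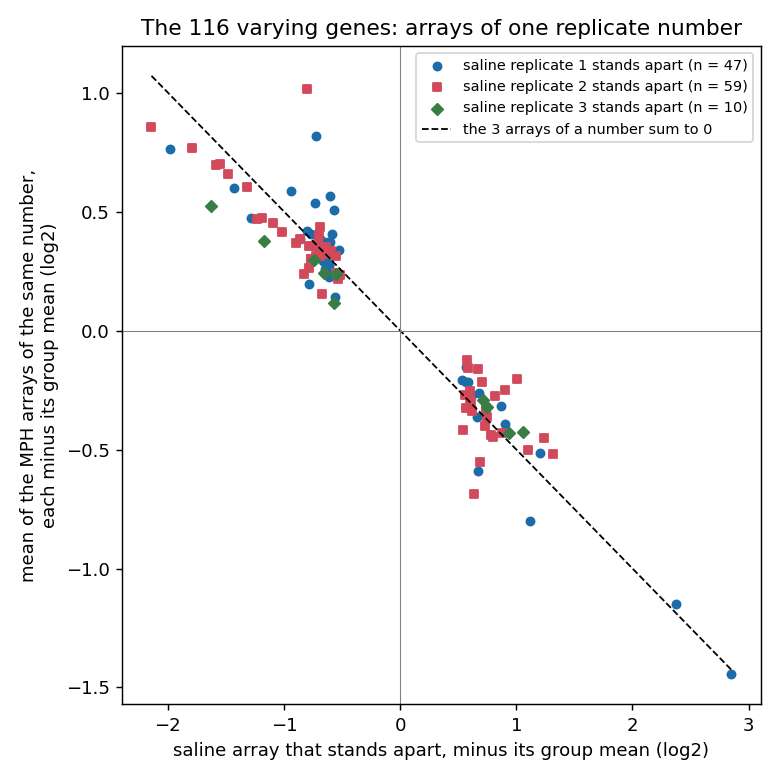
For each of the 116 varying genes, the saline array that stands apart minus its group mean (horizontal axis, log2) and the average of the same-numbered MPH arrays, each minus its own group mean (vertical axis, log2). All 116 points lie in the upper left and lower right quadrants, near the dashed line on which the 3 arrays of a number sum to 0.

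Markers of neighbouring regions held many of the varying genes on the lists. Of the 356 listed genes measured, 40 varied, or 11.2%, compared with 0.678% of all genes. Among them were 9 of 13 thalamic genes, 4 of 7 raphe genes, 6 of 16 meningeal genes, 5 of 18 hypothalamic genes and 4 of 17 cortical genes. The list of subthalamic, red nucleus and midbrain glutamate neurons held 2 of 11. None of the dopamine neuron, pan-neuronal, mature oligodendrocyte, astrocyte, microglia, endothelial and mural genes varied. The GABA neuron and oligodendrocyte precursor lists held 1 each, Six3 and Gpr17. With the probe sets of each gene averaged, 4 thalamic, 3 meningeal and 1 astrocyte gene varied. Among probe sets without an s, x or a mark in their name, a mark of probes shared between transcripts, 1 astrocyte gene also varied. Without replicate 2, 1 of the 13 thalamic genes, 2 raphe genes, 1 meningeal, 2 hypothalamic and 1 cortical gene had a range over 1. Without replicate 1, 7 thalamic and 3 hypothalamic genes did, and 0 raphe, meningeal and cortical genes. These lists were chosen with such values known, so the counts describe the arrays and test nothing.

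**Figure D3:**
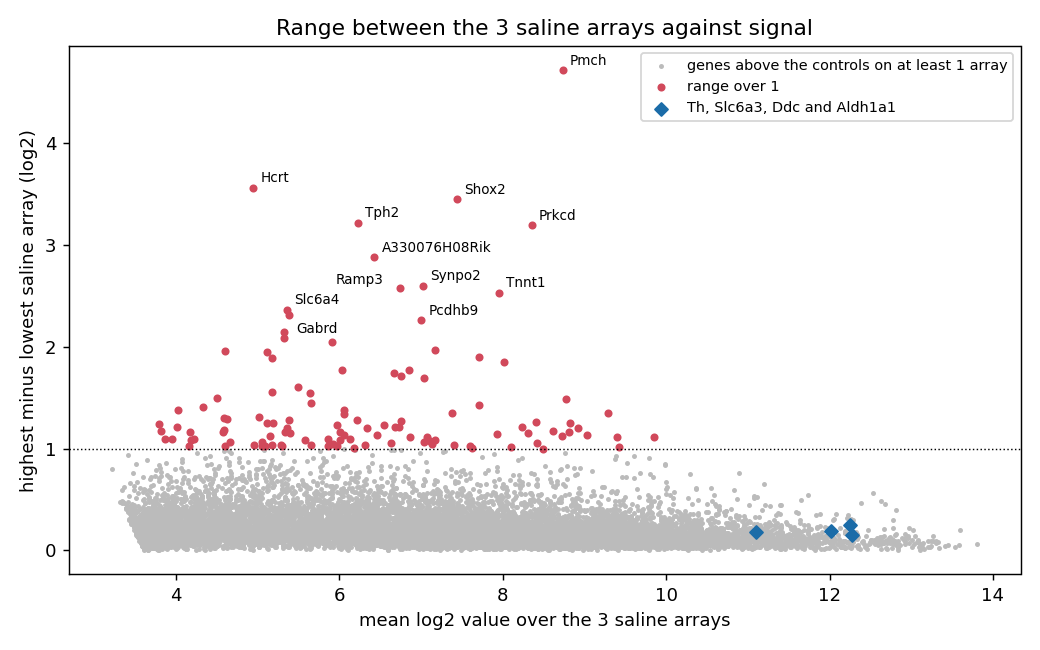
Highest minus lowest saline array (vertical axis, log2) against the mean log2 value (horizontal axis) for the 12960 genes above the controls on at least 1 array. The 116 genes with a range over 1 are in red with the 12 largest named, and Th, Slc6a3, Ddc and Aldh1a1 are blue diamonds near the bottom right.

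Thalamic genes were low in replicate 2. Prkcd, a protein kinase C of thalamic relay neurons, had 9.76, 6.56 and 8.73 in replicates 1, 2 and 3. Synpo2, an actin-binding protein, had 8.03, 5.43 and 7.59, and Ramp3, a receptor accessory protein, 7.78, 5.20 and 7.27. Tcf7l2, the Wnt effector that marks most thalamic neurons, differed less, at 9.73, 8.39 and 9.72, and Rora, a nuclear receptor, was at 9.37, 8.12 and 8.97. Ntng1, Plekhg1, Lhx9 and Gbx2 completed the 9 varying members, and replicate 2 was the lowest array for each of the 9. Over the whole list it was lowest for 10 of the 12 genes above the controls on any array. The list median was 8.03, 5.43 and 7.59. Calb2, which midbrain neurons also express, was the exception among the bright members, with 9.71, 10.54 and 9.70. Shox2, a homeobox factor that is on no list but is known from the thalamus, had 8.75, 5.30 and 8.27, and its second probe set 5.34, 3.39 and 4.76. Gabrd, a GABA receptor subunit for tonic inhibition, had 6.38, 4.07 and 5.72, but its second probe set lay near the controls, at 3.52, 3.47 and 3.63. Tnnt1, a troponin, had 9.0002, 6.47 and 8.37, with replicate 2 the lowest. The number means of Prkcd over all groups were 8.75, 8.60 and 8.72, and the MPH arrays numbered 2 had 9.88 (1 mg/kg) and 9.37 (10 mg/kg).

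Serotonin neuron genes were low in replicate 1. Tph2, the enzyme that limits serotonin synthesis in the brain, had 4.24, 7.47 and 6.96, and the serotonin transporter Slc6a4 had 4.07, 6.44 and 5.55. The receptor Htr1a had 5.44, 6.57 and 6.17, and Gchfr, a regulator of cofactor synthesis, 4.06, 5.12 and 4.82. Replicate 1 was the lowest array and replicate 2 the highest for all 6 list genes above the controls. In the MPH arrays of number 2, Tph2 was at 3.20 and 3.61. For Sncg and Maob, which are not limited to the raphe, the range was at most 0.53.

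Hypothalamic peptide genes did not move together. Pmch, which encodes melanin-concentrating hormone of lateral hypothalamic neurons, had the largest range of all genes, with 11.58, 6.86 and 7.75, a 26.4-fold span of signal. Hcrt, the hypocretin gene of neighbouring lateral neurons, had 7.32, 3.77 and 3.75, and it was barely above the controls in replicates 2 and 3. Both stood apart through replicate 1. Hdc, the histamine-making enzyme of tuberomammillary neurons, had 4.55, 6.64 and 4.77, and Cartpt, the CART peptide gene, 6.44, 8.41 and 6.66, both with replicate 2 high. The second probe set of Hdc gave 3.83, 5.70 and 4.27. Crh was highest in replicate 3, at 4.39, 4.04 and 5.33. The list median moved little, at 4.51, 4.22 and 4.46.

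The 250 bases before the starts of Pmch, Hcrt and Tph2, genes of 3 separate cell groups with some of the largest ranges, are set side by side from the same RefSeq table (GRCm38.p6). They lie at chr10:88090822-88091071 on the plus strand, chr11:100762932-100763181 on the minus strand and chr10:115185023-115185272 on the minus strand. Capitals mark TATAAA, the core of the TATA box, searched along the gene's own strand. It begins 27, 33 and 30 bases before the 3 starts and occurs in 7.59% of the 32851 windows. The match is a description of the sequence, and the window of Th shown above does not hold these letters.
Pmch: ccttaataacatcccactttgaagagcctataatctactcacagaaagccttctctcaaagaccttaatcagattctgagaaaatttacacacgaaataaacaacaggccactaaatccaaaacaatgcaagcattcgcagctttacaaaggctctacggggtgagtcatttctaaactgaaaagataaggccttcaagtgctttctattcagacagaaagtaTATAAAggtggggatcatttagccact
Hcrt: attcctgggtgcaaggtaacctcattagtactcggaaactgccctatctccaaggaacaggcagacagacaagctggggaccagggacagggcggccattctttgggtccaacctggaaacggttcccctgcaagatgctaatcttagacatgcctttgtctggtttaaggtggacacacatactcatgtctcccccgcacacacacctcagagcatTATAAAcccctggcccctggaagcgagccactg
Tph2: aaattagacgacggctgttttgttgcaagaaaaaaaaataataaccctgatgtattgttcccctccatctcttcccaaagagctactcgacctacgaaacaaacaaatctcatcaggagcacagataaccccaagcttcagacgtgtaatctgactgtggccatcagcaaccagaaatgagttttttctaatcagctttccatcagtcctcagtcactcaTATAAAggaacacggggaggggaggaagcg

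Fibroblast and meningeal genes were low in replicate 1, by less. Igf2, a growth factor of the meninges and their vessels, had 6.91, 8.33 and 7.88, Dcn, the proteoglycan decorin, had 7.79, 8.85 and 8.62, and the collagen gene Col3a1 had 5.52, 6.61 and 6.25. Ogn, Fmod and Aldh1a2 also had ranges over 1. Replicate 1 was the lowest for 14 of the 15 genes above the controls on any array, by a median of 0.39 below the gene's mean, whereas Ptgds hardly differed. Ttr, the transthyretin of the choroid plexus, went the other way, at 9.68, 8.19 and 8.46, and its second probe set at 8.01, 6.58 and 6.78. No other choroid plexus gene had a range over 1, and Kl, Folr1, Kcnj13 and Aqp1 were not above on all 3 arrays.

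Cortical and hippocampal genes were also low in replicate 1, at low signal. Replicate 1 was the lowest for 11 of the 15 genes above the controls on any array. Nr4a3 had 4.67, 5.96 and 5.52, Icam5, an adhesion molecule of forebrain excitatory neurons, 4.71, 5.74 and 5.40, and Neurod6 3.26, 4.44 and 3.75. For Nr4a3 and Icam5 the 10 mg/kg MPH array numbered 1 was at 7.72 and 7.19, the highest of the 9 arrays. Among neuropeptide genes outside the hypothalamic list, Vip (4.64, 6.24 and 5.61), Tac1 (9.08, 10.10 and 9.10), Tac2 (5.43, 6.51 and 4.96), Adcyap1 and Grp had ranges over 1. Of these 5 genes, replicate 2 was the highest for Vip, Tac1, Tac2 and Adcyap1. Tac1 and Tac2 are also on the list of subthalamic, red nucleus and midbrain glutamate neurons, as its 2 varying genes of 11. The neuropeptide list held 9 varying genes of 23, Pmch and Hcrt included.

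**Figure D4:**
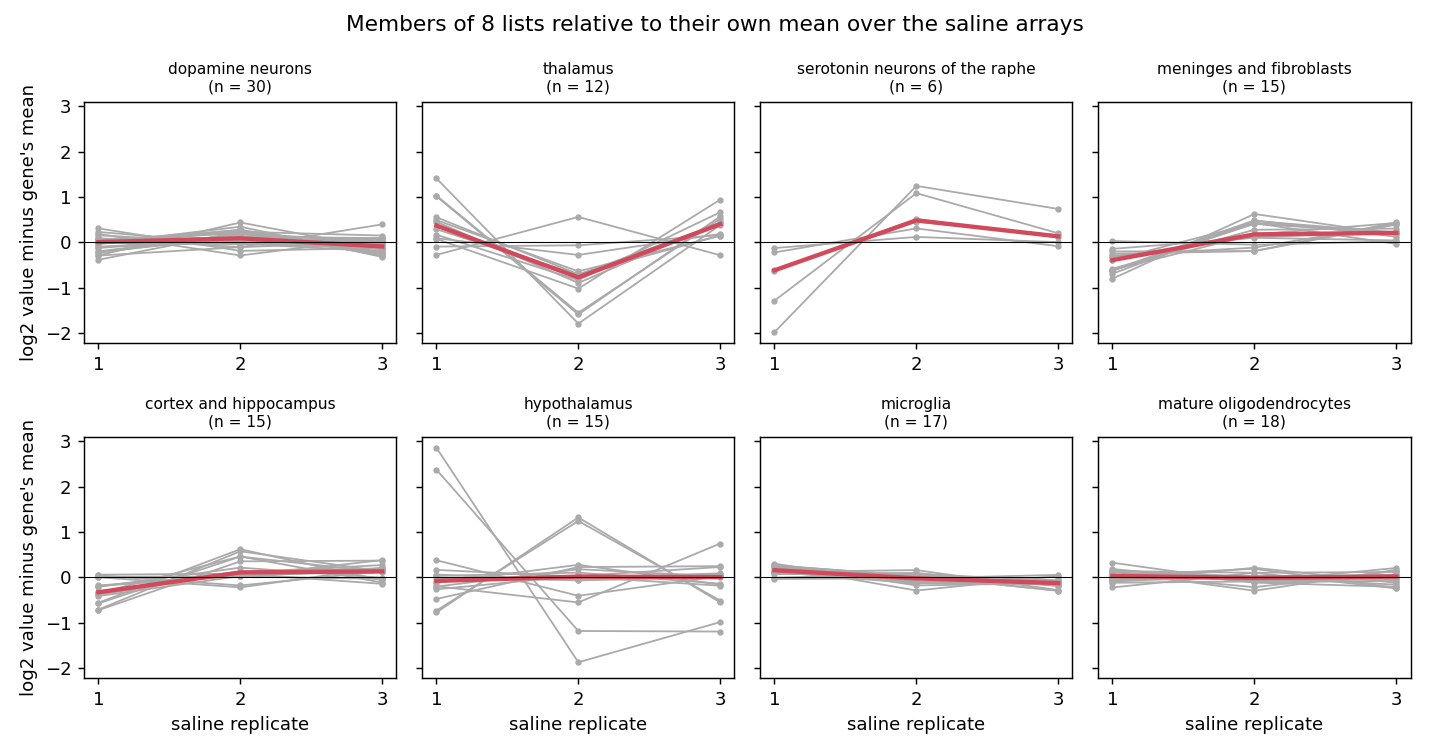
Log2 value of each gene minus its own mean over the saline arrays (vertical axis) in saline replicates 1, 2 and 3 (horizontal axis) for the members of 8 lists above the controls on any array. Grey lines join the values of 1 gene, red lines join the medians, and the replicates have no order. Thalamic genes drop in replicate 2 and raphe genes in replicate 1, while dopamine neuron, microglia and oligodendrocyte genes stay near 0.

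Among the remaining genes of the 20 largest ranges, Prdm8, a transcriptional repressor of the neural lineage, had 4.28, 6.42 and 5.26, and Pcdhb9, a clustered protocadherin, 5.57, 7.59 and 7.83. Lhx2, a LIM homeobox factor, had 4.95, 4.22 and 6.17. The gene A330076H08Rik had 6.81, 7.68 and 4.80, and its second probe set 5.46, 5.22 and 4.75, so replicate 3 was low in both. Soga3 was also low in replicate 3, at 8.44, 8.15 and 6.54, but its second probe set lay near the controls. The pseudogene Pisd-ps3 had 6.72, 4.67 and 6.33, with replicate 2 low. The gene 4632427E13Rik had 6.38, 4.65 and 4.49, with replicate 1 high.

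**Figure D5:**
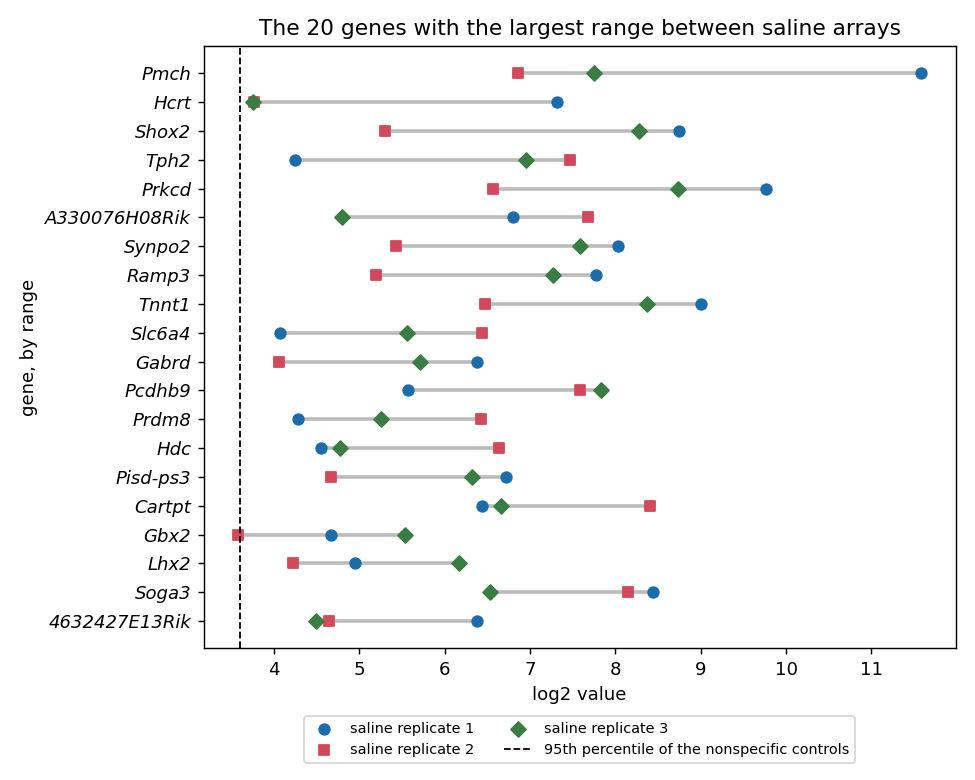
Log2 values in saline replicates 1 (circles), 2 (squares) and 3 (diamonds) of the 20 genes with the largest range between the saline arrays, largest at the top, with the control threshold as a dashed line. Pmch and Hcrt stand out through replicate 1, and Shox2, Prkcd, Synpo2, Ramp3, Tnnt1 and Gabrd through a low replicate 2.

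Sex chromosome genes give a further view of the tie between arrays of one number. The Y-linked genes Eif2s3y, Kdm5d and Uty were above the controls on all 3 saline arrays, with Eif2s3y at 6.93, 7.71 and 6.59. Xist, the RNA of the inactive X chromosome, had 4.15, 2.99 and 4.22. Replicate 2 was thus the highest for Eif2s3y and the lowest for Xist. The 1 mg/kg MPH array of number 2 had 4.11 for Eif2s3y and 9.002 for Xist, and the 10 mg/kg MPH array of that number had 7.73 and 2.99, nearly the values of saline replicate 2. Of the 9 arrays, the 1 mg/kg MPH array of number 2 was the highest for Xist, which lay between 2.99 and 4.62 on the other 8, and the lowest for Eif2s3y, Kdm5d and Uty. The labels give no sex, and whether that array comes from an animal of another sex than the rest was not tested. Both other arrays of its number had Xist under the control threshold of 3.61.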

How the data were processed

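The substantia nigra of saline mice was measured on 3 arrays, replicates 1 to 3 by label. The authors deposited log2 intensities from Robust Multichip Average, in which background is corrected, quantiles are equalized and each probe set is summarized. Its version is not given in the sources used here. ComBat, a batch correction, is also named for the 3 replicates, without a statement that it was part of the deposited table. The array number limits the precision. With 1 group and no contrast between groups, the values are given as a description and no test was run.

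By the platform annotation, 28898 of 45037 probe sets (104 controls left out) name a single gene, 551 name several and 15588 name none. An identifier in the mouse RefSeq annotation was found for 28689 single-gene probe sets and changed 0 symbols, and 7180 genes had several probe sets. Genes read only by other probe sets were not ranked here, and of these only Slc18a2 is given. Means, SDs and ranges were computed in Python 3.11.15 with pandas 2.3.3 and numpy 2.4.6, and the steps were tested on simulated data. Named genes were the markers Th, Slc6a3, Ddc and Aldh1a1, the 15 brightest, up to 4 bright members of each list, its defining members not above the controls, its widest-ranging member, and the 20 largest ranges. Further list members were named after their values were seen. The members and lists were chosen with earlier results of these data known. Alternatives were other control thresholds, range thresholds from 0.5 to 2, other choices of probe sets, a second normalization, centring, and each saline array left out.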

Additional observations from a re-analysis of the deposited data

Results flagged for a closer look

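Probe sets outside the gene ranking also carried signal. Of the 15588 probe sets with no gene name in the platform annotation, 8193 (52.6%) were above the nonspecific controls on all 3 saline arrays. The share was 68.0% among the single-gene probe sets. Of the 15588 unnamed probe sets, 83 (0.532%) had a range over 1 with at least 1 saline array above the controls. By the same rule, 0.602% of the single-gene probe sets had a range over 1. The unnamed probe set with the largest range had 8.02, 4.69 and 4.44 in replicates 1, 2 and 3, so that replicate 1 stood apart. Of the 551 probe sets that name several genes, 3 (0.544%) had a range over 1.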

How the results depend on the processing

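The count of genes above the nonspecific controls stayed within 1.5 times the reported 12196 under every alternative run, from 9533 against the highest control to 14296 against the 75th percentile. The median SD stayed between 0.0664 and 0.0982. The count of 116 varying genes depends on the range threshold, with 851 genes over 0.5 and 15 over 2. Leaving out 1 saline array gave 30 to 90 varying genes, 46 without replicate 1, 30 without replicate 2 and 90 without replicate 3. Averaging the probe sets of each gene gave 80, of which 77 were among the 116, and reduced the varying thalamic genes from 9 to 4 and the meningeal ones from 6 to 3. The variance ratio of the replicate numbers was 0.0794 over probe sets above the controls. Of 168 list counts above the controls under other settings, 26 moved by over 1.5 times or to or from 0, most of them in faint lists. Of 252 counts of varying list members under settings other than range thresholds, 39 moved by the same rule. No paired analysis was possible because the result comes from no test. Signal near the controls limits the faint lists, and the tie between same-numbered arrays limits every difference between the saline arrays.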
